A study of Mus musculus with 12 samples.

Results

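The TRIM (tripartite motif) genes were read in mouse hearts as all probes of an Illumina expression array whose annotated symbol is Trim followed by a number. There were 113 such probes, for 61 genes, among 45281 probes and 19057 genes with a single symbol. The hearts came from 6 genotypes that combine Trex1 and STING (gene Sting1), with 2 arrays per genotype and 12 in all. Trex1 encodes an exonuclease that degrades cytosolic DNA, and STING is the adaptor that links cytosolic DNA, sensed by cGAS, to type I interferon. The groups were Trex1 KO (written Trex-/- in the labels) with STING -/-, STING +/- or STING +/+, and Trex1 WT (Trex+/+) with the same 3 STING genotypes. All mice were of the mixed strain C57BL6/129Sv and untreated, and no age, sex or litter is given in the labels. One array is treated here as one heart, which the labels do not state outright, so the p-values measure the spread between these arrays.

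TRIM proteins carry a RING domain, B-boxes and a coiled coil, and most of them attach ubiquitin or related modifiers to other proteins. Several are induced by interferon and act on viruses or on the sensors of foreign nucleic acid, and in rodents some of these sit side by side as recently duplicated genes. Others serve striated muscle (the MuRF ligases of the sarcomere and the membrane repair protein MG53) or chromatin (the TIF1 group).

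The arrays were of similar brightness, with median raw signals of 80 to 90.3 and 38.3% to 44.7% of probes detected. Precision is limited by having 2 arrays per group. The labelled tissue was checked by cardiomyocyte markers, which were bright on every array, with means of 13.37 or more on the log2 scale. The Trex1 probe ILMN_3131766 had a log2 signal of 5.38 to 5.68 on 5 of the 6 Trex1 KO arrays, against 6.53 to 7.34 on the Trex1 WT arrays. A value of 6.76, inside the WT range, came from replicate 2 of the hearts labelled Trex1 KO, STING +/+. On another detected Trex1 probe, ILMN_2509737, that array read 7.84, also inside the WT range of 7.37 to 8.16. The other Trex1 KO arrays read 6.79 to 7.30 on it. Whether either probe lies in the deleted part of the gene was not checked here. The same array had a log2 signal of 5.91 on ILMN_2615855, a probe of Hnrnpa2b1, an abundant RNA-binding protein gene. Trex1 WT, STING +/- replicate 1 had 8.47, against 10.91 to 11.63 on the other 10 arrays. A further Hnrnpa2b1 probe, ILMN_2771074, was not low on these arrays. It read 7.30 and 8.37 there, and 7.28 to 8.37 over all 12 arrays. Low Hnrnpa2b1 in what follows means low on ILMN_2615855. Atrial markers were raised on 4 arrays (Trex1 KO, STING -/- replicate 2, Trex1 KO, STING +/- replicate 2 and both Trex1 WT, STING -/- arrays), where Sln read 9.70 to 15.27, against 4.34 to 4.63 elsewhere. Xist was high on 4 arrays: the one labelled Trex1 KO, STING +/+ replicate 2, Trex1 WT, STING -/- replicate 1 and both Trex1 WT, STING +/+ arrays. These 4 were taken as female where sex was a covariate. Trex1 KO and Trex1 WT hearts on STING +/+ thus differ in Xist as well, since Trex1 KO, STING +/+ replicate 1 was not high. One label field gave another STING genotype for 7 of the 12 samples, and the genotype field, which the title and source fields repeat, was used. The Sting1 probe read 7.03 and 6.94 in Trex1 KO, STING +/+ hearts and 4.67 to 5.75 on the other 10 arrays, close to background, so it does not check the STING genotypes.

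A probe counted as detected where its detection score was over 0.95 on 2 or more arrays. By this rule 55 of the 113 Trim probes, for 35 genes, were detected and tested. Of the 55, 28 were detected on all 12 arrays. The number of Trim probes detected per array was 42 and 52 in Trex1 KO, STING +/+ hearts, against 42 and 46 in Trex1 WT, STING +/+ hearts. It was 40 to 52 in the 4 other genotypes. The share of all probes detected, lower array first as above, was 40.16% and 44.66% in Trex1 KO, STING +/+ hearts. It was 40.13% and 40.77% in Trex1 WT, STING +/+ hearts and 38.28% to 44.57% in the 4 other genotypes. How far the Trim counts follow these shares was not tested. The 58 Trim probes left out had raw signals of 56.4 to 97.6, of which 48 were detected on no array and 10 on a single array. They leave 26 genes without a tested probe, 7 of them linked to antiviral defence (Trim6, Trim12c, Trim14, Trim30b, Trim31, Trim38 and Trim40). Trim14 and Trim30b were detected on one array each, and both times it was a Trex1 KO, STING +/+ array. Trim14 had a score of 0.96154 and a raw signal of 94.3 on replicate 1. A pair of Trim30b probes had scores of 0.97009 and 0.95833 and raw signals of 96.2 and 94.5 on the array labelled replicate 2. Another Trim30b probe, ILMN_2689651, was detected on no array. Single detections were not particular to these genes or this genotype. A Trim36 probe had one on a Trex1 KO, STING +/+ array. Probes of Trim2, Trim7, Trim9, Trim50, Trim52 and Trim58 had one on arrays of other genotypes, with scores of 0.95513 to 0.9765. No probe carries the symbols Trim5, Trim12a, Trim30c, Trim34b, Trim55 or Trim67 in the annotation, and these genes were not analysed here.

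In Trex1 KO hearts with STING +/+, 8 Trim genes were higher than in Trex1 WT hearts with STING +/+ and 2 were lower. The 8 higher genes were Trim30a, Trim30d, Trim21, Trim34a, Trim25, Trim26, Trim47 and Trim59, and the 2 lower genes were Trim63 and Trim33. In probes, 11 of 55 were higher (20.0%) and 2 were lower (3.64%), at a Benjamini-Hochberg adjusted p under 0.05 in limma over all 22810 detected probes. The background was 10.3% of all tested probes higher and 9.65% lower. The 11 include ILMN_2927093 of Trim25 and ILMN_2515081 of Trim59, which passed the detection rule only through the Trex1 KO, STING +/+ arrays. The median difference was 0.0044 over the Trim probes and -0.075 over all tested probes, on the log2 scale. The roles were chosen with earlier results of these data known. The antiviral role also holds genes grouped for their link to interferon. By role the calls were as follows. Of the 8 tested antiviral genes 6 were higher, of the 4 tested muscle genes 1 was lower, of the 3 tested TIF1 genes 1 was lower, none of the 4 tested brain and developmental genes passed in any direction, and of the 16 other tested genes 2 were higher. No test of the difference between these roles was made. The number of Trim probes past the threshold was 8 without Trex1 WT, STING +/+ replicate 1, and 22 (11 higher and 11 lower) without Trex1 KO, STING +/+ replicate 1.

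**Figure D1:**
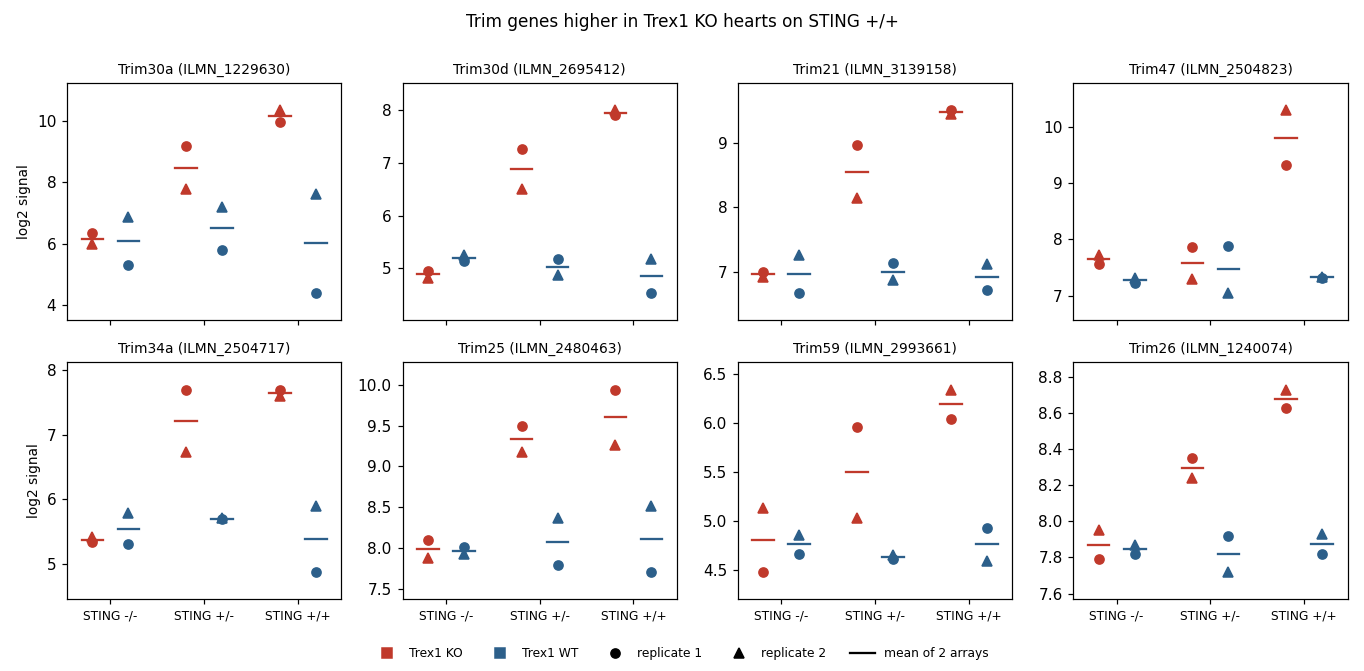
Normalised log2 signal (vertical axis, a scale of its own in each panel) of the 8 Trim genes that were higher in Trex1 KO hearts on STING +/+, by STING genotype, with Trex1 KO (red) left of Trex1 WT (blue). Each point is 1 array and each bar the mean of 2 arrays. On STING +/+ both Trex1 KO points lie above both Trex1 WT points in all 8 panels, and on STING -/- the means differ by at most 0.37 between Trex1 KO and Trex1 WT.

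Among the antiviral genes, Trim30a had the largest fitted difference, an order that turned without Trex1 WT, STING +/+ replicate 1 (2.52 for Trim30a and 2.79 for Trim30d). Its product restrains Toll-like receptor signalling to NF-kappaB in mouse cells. Trim30a (ILMN_1229630) had log2 signals of 9.96 and 10.33 in Trex1 KO, STING +/+ hearts, against 4.41 and 7.63 in Trex1 WT, STING +/+ hearts. The raw signals were 1398.4 and 1469.2 in Trex1 KO, STING +/+ hearts, against 78.6 and 240.7 in Trex1 WT, STING +/+ hearts. The groups did not overlap, and the 2 WT arrays lay far apart, the first of them below the detection score. The difference was 4.13 ± 0.93 (log2, SE, n = 2 per group), or 17.5-fold, with an adjusted p of 0.0114 in limma. The call was lost without Trex1 WT, STING +/+ replicate 1 (adjusted p = 0.0768 in limma) and without the array labelled Trex1 KO, STING +/+ replicate 2 (3.94, adjusted p = 0.0528 in limma).

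Trim30d (ILMN_2695412), a close relative of Trim30a, had log2 signals of 7.92 and 8.00 in Trex1 KO, STING +/+ hearts, against 4.53 and 5.17 in Trex1 WT, STING +/+ hearts. The difference of 3.11 ± 0.29 was 8.63-fold (SE, n = 2 per group; adjusted p = 9.1e-05 in limma). One of the 2 WT arrays passed the detection score for Trim30d. The probes of the Trim30 genes were not matched to sequence here, so reads of one relative by the probe of another were not checked.

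Trim34a, a relative of the restriction factor gene Trim5, was measured by a pair of probes. The brighter one, ILMN_2504717, had log2 signals of 7.70 and 7.60 in Trex1 KO, STING +/+ hearts, against 4.88 and 5.90 in Trex1 WT, STING +/+ hearts. Its difference of 2.26 ± 0.37 was 4.8-fold (SE, n = 2 per group; adjusted p = 0.0022 in limma), and the other probe, ILMN_2504718, gave 2.18 (adjusted p = 0.00302 in limma). Each probe was detected on 1 of the 2 WT arrays, and the groups did not overlap on either.

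Trim21, a cytosolic antibody receptor that sends antibody-coated virus to the proteasome, was bright on every array. Its probe ILMN_3139158 had log2 signals of 9.50 and 9.44 in Trex1 KO, STING +/+ hearts, against 6.71 and 7.11 in Trex1 WT, STING +/+ hearts. The difference of 2.56 ± 0.30 was 5.88-fold (SE, n = 2 per group; adjusted p = 0.000311 in limma). A dimmer Trim21 probe, ILMN_3061663, did not pass on STING +/+. It read 6.14 and 4.52 in Trex1 KO, STING +/+ hearts, against 4.61 and 4.72 in Trex1 WT, STING +/+ hearts, so the groups overlapped (0.67 ± 0.42, adjusted p = 0.287 in limma). On STING +/- it read 5.97 and 5.94 in Trex1 KO hearts, against 4.37 and 4.52 in Trex1 WT hearts, where neither WT array detected it, and did not pass either (adjusted p = 0.167 in limma). The remaining probe, ILMN_1214544, was detected on no array and gives no value.

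Trim25, the ubiquitin ligase that acts with the RNA sensor RIG-I, was higher on both of its probes. ILMN_2480463 had log2 signals of 9.94 and 9.26 in Trex1 KO, STING +/+ hearts, against 7.71 and 8.51 in Trex1 WT, STING +/+ hearts. The groups did not overlap, and the difference was 1.49 ± 0.33, or 2.8-fold (SE, n = 2 per group; adjusted p = 0.0102 in limma). The dimmer probe, ILMN_2927093, was not well above background on either WT array and was at least 1.34-fold higher in Trex1 KO hearts (adjusted p = 0.0348 in limma). It was detected only on both Trex1 KO, STING +/+ arrays and on Trex1 KO, STING +/- replicate 1. It was thus tested only through the group where it is high and is not separate support for the rise. With sex as a covariate it did not pass (0.70, adjusted p = 0.0744 in limma). The call of the brighter probe was lost without Trex1 WT, STING +/+ replicate 1 (1.09, adjusted p = 0.098 in limma). That of the dimmer probe was lost without Trex1 WT, STING +/+ replicate 1 (adjusted p = 0.237 in limma) or replicate 2 (adjusted p = 0.0542 in limma), and without Trex1 KO, STING +/+ replicate 1 (adjusted p = 0.0861 in limma).

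Trim26, whose gene lies in the major histocompatibility region, showed the smallest rise among the brightest probes. ILMN_1240074 had log2 signals of 8.63 and 8.73 in Trex1 KO, STING +/+ hearts, against 7.82 and 7.93 in Trex1 WT, STING +/+ hearts. The arrays within each group were close together, and the difference was 0.80 ± 0.18, or 1.75-fold (SE, n = 2 per group; adjusted p = 0.012 in limma). The call was lost without Trex1 WT, STING +/+ replicate 1 (adjusted p = 0.0915 in limma) or replicate 2 (adjusted p = 0.0555 in limma).

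The 2 other tested antiviral genes did not pass. Trim56, which has been reported to act on STING and cGAS in cultured cells, read 7.91 and 6.57 in Trex1 KO, STING +/+ hearts, against 7.29 and 7.36 in Trex1 WT, STING +/+ hearts, with overlapping groups (-0.083 ± 0.42, adjusted p = 0.919 in limma). Trim65, reported to act on the RNA sensor MDA5, differed by 0.12 ± 0.22 (adjusted p = 0.756 in limma).

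Promoter sequence is shown for 5 of the 8 higher genes because these 5 hold GAAA, 2 letters of any kind and GAAA again, the core of the interferon-stimulated response element, within 250 bases before and 50 after the annotated start. The sequences are those of RefSeq on GRCm38.p6, in the direction of the gene, with matches on either strand in capitals (they read TTTC, 2 letters and TTTC where they lie on the opposite strand).
Trim30a: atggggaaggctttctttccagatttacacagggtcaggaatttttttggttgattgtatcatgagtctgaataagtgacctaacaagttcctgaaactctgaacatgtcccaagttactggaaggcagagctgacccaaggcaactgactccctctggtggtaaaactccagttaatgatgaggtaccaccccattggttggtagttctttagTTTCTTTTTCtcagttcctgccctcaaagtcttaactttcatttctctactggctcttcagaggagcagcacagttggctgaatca
Trim30d: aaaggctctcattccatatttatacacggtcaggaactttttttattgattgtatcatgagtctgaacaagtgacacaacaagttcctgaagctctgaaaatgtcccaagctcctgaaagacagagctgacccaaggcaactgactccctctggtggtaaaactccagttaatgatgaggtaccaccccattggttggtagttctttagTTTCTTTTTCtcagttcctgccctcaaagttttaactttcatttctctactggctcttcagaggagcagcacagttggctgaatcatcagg
Trim34a: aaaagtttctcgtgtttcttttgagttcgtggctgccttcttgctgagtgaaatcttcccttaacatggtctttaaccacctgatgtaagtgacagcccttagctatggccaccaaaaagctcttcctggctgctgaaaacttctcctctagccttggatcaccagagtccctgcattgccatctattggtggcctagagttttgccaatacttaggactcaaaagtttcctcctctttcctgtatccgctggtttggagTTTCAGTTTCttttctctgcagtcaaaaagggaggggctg
Trim21: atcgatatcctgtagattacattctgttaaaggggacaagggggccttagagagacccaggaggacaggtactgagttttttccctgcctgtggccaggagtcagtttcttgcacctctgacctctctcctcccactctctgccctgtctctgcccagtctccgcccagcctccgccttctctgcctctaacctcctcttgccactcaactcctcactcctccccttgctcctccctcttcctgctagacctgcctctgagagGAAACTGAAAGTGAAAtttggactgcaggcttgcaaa
Trim26: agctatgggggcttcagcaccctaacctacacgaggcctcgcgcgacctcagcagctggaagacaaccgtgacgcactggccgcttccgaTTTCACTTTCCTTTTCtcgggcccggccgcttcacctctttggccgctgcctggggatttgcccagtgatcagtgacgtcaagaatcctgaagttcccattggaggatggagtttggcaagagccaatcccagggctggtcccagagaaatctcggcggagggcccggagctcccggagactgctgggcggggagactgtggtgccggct
The Trim30a window is chr7:104465144-104465443 on the minus strand, with its match at positions -36 to -27 from the start. A further Trim30a start, at chr7:104446076-104446375 on the minus strand, has its match at positions 3 to 12. The Trim30d window is chr7:104507800-104508099 on the minus strand, with the match at -41 to -32, and its matched letters are those of Trim30a. The Trim34a window is chr7:104244207-104244506 on the plus strand, with the match at 11 to 20. The Trim21 window is chr7:102565433-102565732 on the minus strand, with overlapping matches at 14 to 23 and 20 to 29. The Trim26 window is chr17:36836896-36837195 on the plus strand, with overlapping matches at -160 to -151 and -154 to -145.

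These letters, searched on both strands with overlaps allowed, occur in 3.44% of 32851 promoter windows of the same length. Of the 61 Trim genes 48 had a window in the table, and 7 of the 48 hold the letters. Some genes have several windows, and in windows it was 8 of 62. All 8 higher genes had a window, and the letters were not in those of Trim25, Trim47 and Trim59. Of the 17 tested genes that did not pass and had a window, Trim2 holds them. Of the 22 genes with a window but without a tested probe, Trim12c does. With a C required after the second GAAA, 5 Trim genes hold the letters (Trim2, Trim12c, Trim30a, Trim30d and Trim34a). In windows it was 6 of 62, against 0.819% of all windows. A match is a description of the sequence and was not tested as a binding site.

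Trim30a and Trim30d are neighbours, and Trim34a lies further along in the same run of genes. Among the protein-coding genes of the gene table, 10 Trim genes follow each other on chromosome 7, interrupted only by 1 predicted gene. Genes of other kinds were not counted. Of the 10, 6 have a probe, 3 were detected and these 3 were all higher in Trex1 KO hearts with STING +/+. The background was 10.3% of all tested probes higher. Since the probes of the Trim30 genes were not matched to sequence, the calls of Trim30a and Trim30d may not be separate observations. The 3 not detected were Trim6, Trim12c and Trim30b.

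Beyond the antiviral genes, Trim47 and Trim59 were higher. Trim47, a RING ligase with a C-terminal SPRY domain, had log2 signals of 9.32 and 10.29 on ILMN_2504823 in Trex1 KO, STING +/+ hearts, against 7.32 and 7.33 in Trex1 WT, STING +/+ hearts. The groups did not overlap, and the difference of 2.48 ± 0.36 was 5.57-fold (SE, n = 2 per group; adjusted p = 0.00104 in limma). Trim59, which encodes a membrane-anchored member, read 6.04 and 6.34 on ILMN_2993661 in Trex1 KO, STING +/+ hearts, against 4.93 and 4.59 in Trex1 WT, STING +/+ hearts. Neither WT array detected it, so the rise was at least 2.28-fold (fitted difference 1.43 ± 0.32, adjusted p = 0.0114 in limma). Its other probe, ILMN_2515081, was at least 1.79-fold higher (adjusted p = 0.00239 in limma). That probe was detected only on both Trex1 KO, STING +/+ arrays and on Trex1 KO, STING +/- replicate 1. It was thus tested only through the group where it is high and is not separate support for the rise. The call of ILMN_2993661 was lost without Trex1 WT, STING +/+ replicate 2 (adjusted p = 0.087 in limma) and without the array labelled Trex1 KO, STING +/+ replicate 2 (adjusted p = 0.0559 in limma).

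Of the 4 tested muscle genes, Trim63 alone passed. It encodes MuRF1, the ligase that marks sarcomere proteins for breakdown in atrophy, and it was lower in Trex1 KO hearts. Trim63 (ILMN_3161060) had log2 signals of 9.23 and 7.75 in Trex1 KO, STING +/+ hearts, against 10.59 and 10.59 in Trex1 WT, STING +/+ hearts. Both KO values lie below those of all 10 other arrays, the lowest of which is 9.80. Trim63 fell by 2.10 ± 0.43 on the log2 scale (SE, n = 2 per group; adjusted p = 0.00692 in limma). Without the array labelled Trex1 KO, STING +/+ replicate 2, the lower of the 2, the difference was -1.36 (adjusted p = 0.023 in limma).

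Trim72 (MG53), which patches the cell membrane after injury, had log2 signals of 11.85 and 11.84 in Trex1 KO, STING +/+ hearts, against 12.11 and 12.86 in Trex1 WT, STING +/+ hearts. The groups did not overlap, but the difference did not pass (-0.64 ± 0.39, adjusted p = 0.282 in limma). Trim54 (MuRF3), the microtubule-binding relative of Trim63, read 11.15 and 11.50 in Trex1 KO, STING +/+ hearts, against 10.85 and 10.84 in Trex1 WT, STING +/+ hearts (0.48 ± 0.20, adjusted p = 0.131 in limma). Trim32, mutated in a human limb-girdle muscular dystrophy, had a difference of -0.56 ± 0.24 (adjusted p = 0.131 in limma).

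**Figure D2:**
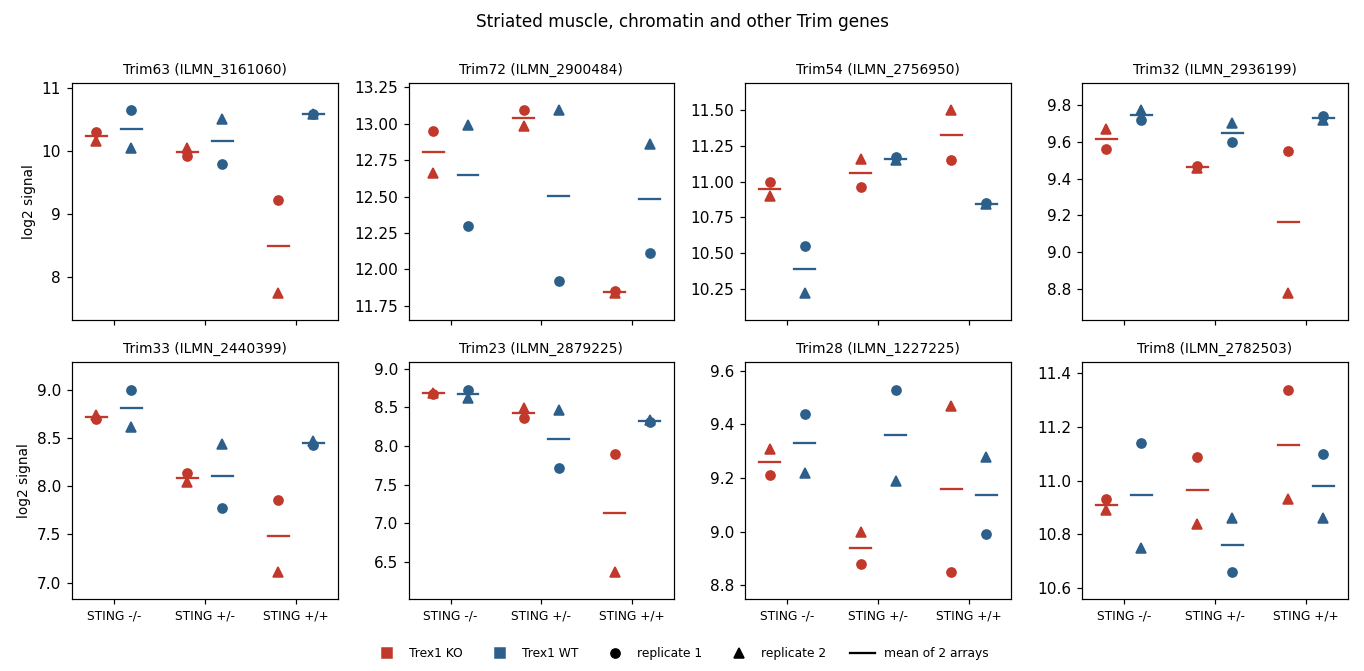
Normalised log2 signal (vertical axis, a scale of its own in each panel) of 8 Trim genes of muscle, chromatin and other roles by STING genotype, with Trex1 KO (red) left of Trex1 WT (blue). Each point is 1 array and each bar the mean of 2 arrays. Both Trex1 KO, STING +/+ points of Trim63 lie at or under 9.23, below the other 10 arrays, while Trim33, Trim23 and Trim32 are lowest on the array labelled Trex1 KO, STING +/+ replicate 2 (triangle).

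Of the TIF1 genes, which encode chromatin co-regulators, Trim33 was called lower on 1 of its 5 detected probes. ILMN_2440399, the brightest, read 7.85 and 7.11 in Trex1 KO, STING +/+ hearts, against 8.42 and 8.47 in Trex1 WT, STING +/+ hearts (-0.97 ± 0.29, adjusted p = 0.0413 in limma). Its 4 other probes did not pass and disagreed in sign, from -1.03 to 0.21. With sex as a covariate ILMN_2440399 did not pass (-1.06, adjusted p = 0.0511 in limma). The call was lost without Trex1 WT, STING +/+ replicate 1 (adjusted p = 0.15 in limma) or replicate 2 (adjusted p = 0.157 in limma), and without the array labelled Trex1 KO, STING +/+ replicate 2 the difference was -0.60 (adjusted p = 0.215 in limma). Trim28 (KAP1), which silences retroelements, had log2 signals of 8.85 and 9.47 in Trex1 KO, STING +/+ hearts, against 8.99 and 9.28 in Trex1 WT, STING +/+ hearts. The groups overlapped (0.026 ± 0.25, adjusted p = 0.958 in limma). Trim24 lay close to background on all arrays, at 4.58 to 5.05.

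A set of probes was low on the array labelled Trex1 KO, STING +/+ replicate 2 more than on replicate 1. Trim23, which carries a GTPase domain of the ARF type, read 7.90 and 6.37 on ILMN_2879225 in Trex1 KO, STING +/+ hearts, against 8.31 and 8.33 in Trex1 WT, STING +/+ hearts (-1.18 ± 0.42, adjusted p = 0.073 in limma). Trim2, a neuronal ligase, read 7.40 and 6.47 on ILMN_2511355 in Trex1 KO, STING +/+ hearts, against 7.75 and 7.62 in Trex1 WT, STING +/+ hearts (-0.75 ± 0.33, adjusted p = 0.143 in limma). Trim35 did not pass on any of its 4 tested probes, one of which was detected on none of the 4 arrays compared. Its probe ILMN_2445989 read 6.22 and 4.48 in Trex1 KO, STING +/+ hearts, against 6.03 and 6.22 in Trex1 WT, STING +/+ hearts. This is the array with the low signal on the Hnrnpa2b1 probe ILMN_2615855, and the part of that array's other differences in these values was not tested. Trim45 had probes of opposite sign, 0.38 on ILMN_2454919 and -0.67 on ILMN_2983641, and neither passed. Trim8, which acts in cytokine signalling, was bright and did not pass, at 11.34 and 10.93 in Trex1 KO, STING +/+ hearts, against 11.10 and 10.86 in Trex1 WT, STING +/+ hearts (0.15 ± 0.23, adjusted p = 0.699 in limma).

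On STING +/-, 3 Trim probes were higher in Trex1 KO than in Trex1 WT hearts and none was lower, and they belong to Trim30d, Trim21 and Trim34a. That is 3 of 55, against a background of 0.969% of all tested probes higher and 0.118% lower. Trim30d had log2 signals of 7.26 and 6.50 in Trex1 KO, STING +/- hearts, against 5.18 and 4.87 in Trex1 WT, STING +/- hearts (1.85 ± 0.29, 3.61-fold, adjusted p = 0.0142 in limma). Trim21 (ILMN_3139158) read 8.96 and 8.14 in Trex1 KO, STING +/- hearts, against 7.13 and 6.87 in Trex1 WT, STING +/- hearts (1.55 ± 0.30, adjusted p = 0.0423 in limma). Trim34a (ILMN_2504718) read 7.43 and 6.86 in Trex1 KO, STING +/- hearts, against 4.98 and 5.49 in Trex1 WT, STING +/- hearts (1.91 ± 0.38, adjusted p = 0.0458 in limma). The brighter Trim34a probe, ILMN_2504717, did not pass on STING +/-, so the probes of this gene differed in call. It read 7.69 and 6.73 in Trex1 KO, STING +/- hearts, against 5.7 and 5.71 in Trex1 WT, STING +/- hearts. In all 3 genes the groups did not overlap, and replicate 1 was the higher of the KO arrays. The 3 calls were lost when single arrays were left out, while the differences of Trim30d and Trim21 then ran from 1.47 to 2.23 and from 1.14 to 1.96. None of the 3 passed without Trex1 KO, STING +/- replicate 1, without Trex1 WT, STING +/- replicate 1 or without Trex1 WT, STING +/- replicate 2, so the count was then 0.

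Trim30a and Trim25 also had KO arrays above WT arrays on STING +/- without passing. Trim30a read 9.17 and 7.77 in Trex1 KO, STING +/- hearts, against 5.81 and 7.19 in Trex1 WT, STING +/- hearts (1.97 ± 0.93, adjusted p = 0.473 in limma). Trim25 differed by 1.26 ± 0.33 (adjusted p = 0.139 in limma). Trim47 overlapped, at 7.86 and 7.30 in Trex1 KO, STING +/- hearts, against 7.88 and 7.05 in Trex1 WT, STING +/- hearts (0.12 ± 0.36, adjusted p = 0.935 in limma). Trim63 overlapped as well, at 9.93 and 10.06 in Trex1 KO, STING +/- hearts, against 9.80 and 10.52 in Trex1 WT, STING +/- hearts.

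On STING -/-, no Trim probe passed between Trex1 KO and Trex1 WT hearts in limma, and 1 of 55 had an unadjusted p under 0.05 (Trim54, 0.56 ± 0.20). The background was 0.00877% of all tested probes called in either direction. Differences of the 55 Trim probes ran from -0.42 to 0.56. Trim30a read 6.35 and 5.99 in Trex1 KO, STING -/- hearts, against 5.31 and 6.86 in Trex1 WT, STING -/- hearts, and the groups overlapped. Trim21 overlapped at 7.00 and 6.91 in Trex1 KO, STING -/- hearts, against 6.67 and 7.26 in Trex1 WT, STING -/- hearts. Trim30d read 4.94 and 4.82 in Trex1 KO, STING -/- hearts, against 5.13 and 5.24 in Trex1 WT, STING -/- hearts (-0.31 ± 0.29). Trim63 read 10.31 and 10.17 in Trex1 KO, STING -/- hearts, against 10.65 and 10.06 in Trex1 WT, STING -/- hearts. The atrial marker Sln was uneven here, at 4.34 and 15.27 in Trex1 KO, STING -/- hearts, against 14.47 and 15.02 in Trex1 WT, STING -/- hearts. Its part in the result was not tested. Of these arrays Xist was high only on Trex1 WT, STING -/- replicate 1, and no Trim probe passed with sex as a covariate.

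**Figure D3:**
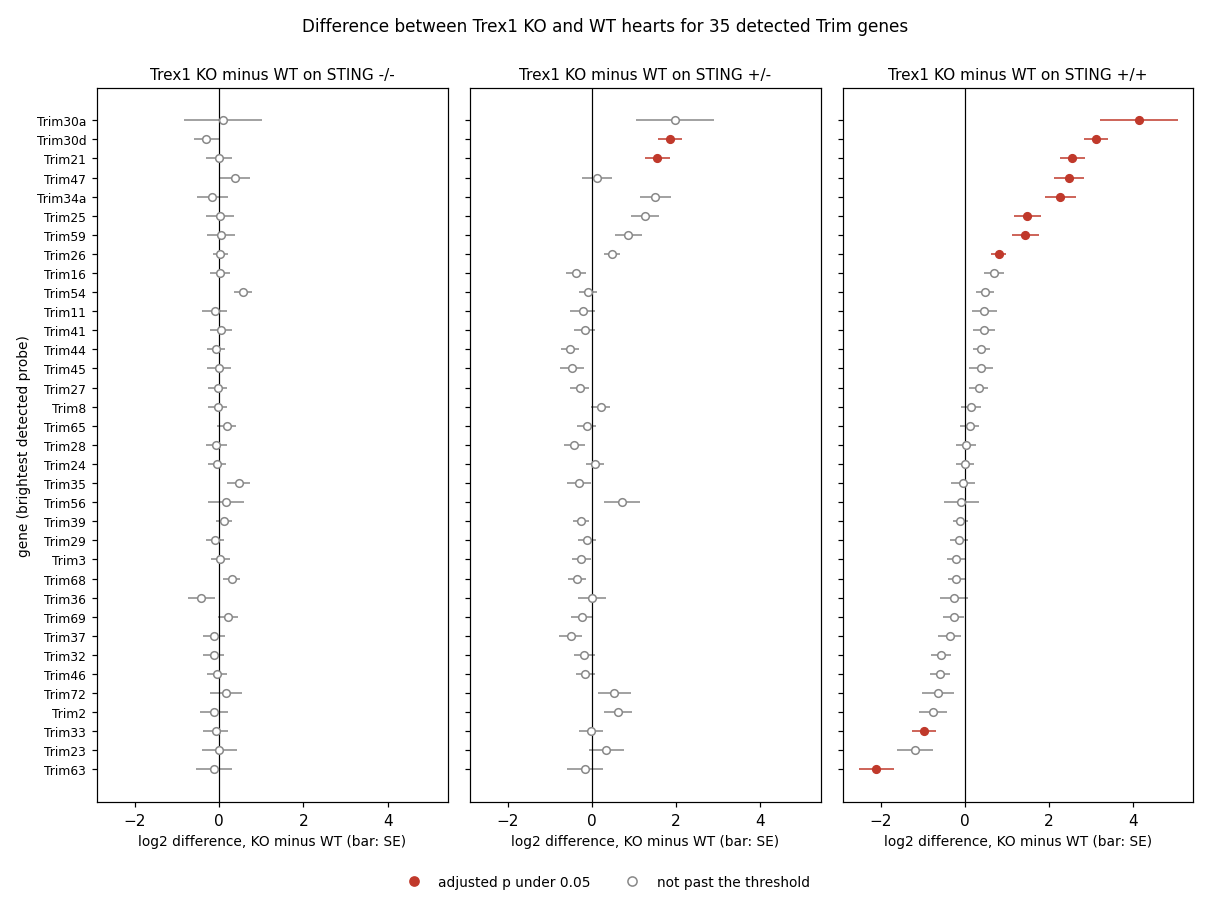
Log2 difference between Trex1 KO and Trex1 WT hearts (horizontal axis, KO minus WT, with SE as the bar, n = 2 arrays per group) for the 35 detected Trim genes, one row per gene by its brightest detected probe, on STING -/-, +/- and +/+ from left to right. Filled red points have a limma adjusted p under 0.05. On STING -/- no point is filled, on STING +/- those of Trim30d and Trim21 are, and on STING +/+ 8 genes are filled to the right of 0 and 2 to the left.

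The size of the Trex1 effect was compared between STING genotypes by the difference of the differences, the effect on STING +/+ minus that on STING -/-. It passed for 6 of 55 Trim probes, all with the larger effect on STING +/+, against a background of 5.29% of tested probes with a positive and 2.93% with a negative difference. These were Trim30d at 3.42 ± 0.41 (adjusted p = 0.00136 in limma), Trim21 at 2.56 ± 0.42 (adjusted p = 0.00566 in limma), both Trim34a probes, Trim47 at 2.10 ± 0.50 (adjusted p = 0.0312 in limma) and Trim59 on ILMN_2515081. The last was detected on no array of 3 of the 4 groups compared, and Trim30d on neither Trex1 KO, STING -/- array, so their sizes are fitted and not measured in full. Trim30a, at 4.04 ± 1.31, did not pass (adjusted p = 0.0924 in limma). For Trim63 the value was -1.98 ± 0.60 (adjusted p = 0.0742 in limma). The count was 2 without Trex1 WT, STING +/+ replicate 1, without Trex1 WT, STING -/- replicate 2 or without Trex1 KO, STING -/- replicate 1. It was 3 without Trex1 WT, STING -/- replicate 1 or without Trex1 KO, STING -/- replicate 2, and 13 without Trex1 KO, STING +/+ replicate 1. Trim21 and Trim30d passed under all 18 alternatives tried. Leaving out all arrays with raised atrial markers would empty the Trex1 WT, STING -/- group. The part of those markers in the result was not tested.

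Within Trex1 KO hearts, 11 Trim probes were lower on STING -/- than on STING +/+ and 5 were higher, against backgrounds of 11.1% and 10.7% of all tested probes. The 11 lower probes belong to the 8 genes that were higher in Trex1 KO than in Trex1 WT hearts on STING +/+. Both comparisons use the Trex1 KO, STING +/+ arrays. Only through these arrays did ILMN_2927093 of Trim25 and ILMN_2515081 of Trim59 pass the detection rule. Trim30d, not well above background on either STING -/- array, was at least 8.02-fold lower in Trex1 KO, STING -/- hearts (adjusted p = 8.2e-05 in limma). Trim47 had 7.56 and 7.73 in Trex1 KO, STING -/- hearts, against 9.32 and 10.29 in Trex1 KO, STING +/+ hearts, and fell by 2.16 ± 0.36 (adjusted p = 0.00221 in limma). Trim21 fell by 2.51 ± 0.30 (adjusted p = 0.000315 in limma), and Trim30a fell by 3.97 ± 0.93 (adjusted p = 0.0133 in limma).

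The 5 higher probes belong to Trim63 (1.75 ± 0.43, adjusted p = 0.0161 in limma), Trim23 on a pair of probes, Trim33 and Trim2. None of the 5 passed without the array labelled Trex1 KO, STING +/+ replicate 2, and the count of probes past the threshold was then 10, all lower. The count was 7 without Trex1 KO, STING -/- replicate 1 and 9 without Trex1 KO, STING -/- replicate 2, all lower.

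Trim30d in Trex1 KO hearts had log2 signals of 4.94 and 4.82 on STING -/-, 7.26 and 6.50 on STING +/-, and 7.92 and 8.00 on STING +/+, with no overlap between neighbouring genotypes. Trim21 had 7.00 and 6.91 on STING -/-, 8.96 and 8.14 on STING +/-, and 9.50 and 9.44 on STING +/+. Its arrays did not overlap between neighbouring genotypes either, but STING +/- against STING +/+ did not pass (-0.92 ± 0.30, adjusted p = 0.0832 in limma). Trim34a (ILMN_2504717) had 5.34 and 5.42 on STING -/-, 7.69 and 6.73 on STING +/-, and 7.70 and 7.60 on STING +/+, so the upper 2 genotypes overlapped. Trim47 had 7.56 and 7.73 on STING -/-, 7.86 and 7.30 on STING +/-, and 9.32 and 10.29 on STING +/+, so the lower 2 overlapped.

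Between STING +/- and STING +/+ in Trex1 KO hearts, 3 Trim probes were lower on STING +/- and none was higher. The background was 5.65% of all tested probes lower and 3.95% higher. The 3 were those of Trim30d, Trim47 and Trim59 (ILMN_2515081, tested only through the Trex1 KO, STING +/+ arrays). Trim47 fell by 2.22 ± 0.36 (adjusted p = 0.00568 in limma) and Trim30d by 1.08 ± 0.29 (adjusted p = 0.0424 in limma). The count was 0 without Trex1 KO, STING +/- replicate 2, 1 without the array labelled Trex1 KO, STING +/+ replicate 2 and 15 without Trex1 KO, STING +/+ replicate 1. Between STING -/- and STING +/- in Trex1 KO hearts, 4 Trim probes were lower on STING -/- (Trim30d, Trim21 and both of Trim34a) and none was higher, against 0.995% of all tested probes lower and 0.11% higher. Trim30d was at least 3.79-fold lower in Trex1 KO, STING -/- than in Trex1 KO, STING +/- hearts (adjusted p = 0.00785 in limma). The count was 0 without Trex1 KO, STING -/- replicate 2 or without Trex1 KO, STING +/- replicate 1, and 1 without Trex1 KO, STING -/- replicate 1.

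In Trex1 WT hearts no Trim probe passed between STING -/- and STING +/+ in limma, and 4 of 55 had an unadjusted p under 0.05, with a background of 0.0395% of all tested probes called in either direction. The smallest adjusted p in limma was 0.357, for Trim39 on a dim probe. Trim21 overlapped, at 6.67 and 7.26 in Trex1 WT, STING -/- hearts, against 6.71 and 7.11 in Trex1 WT, STING +/+ hearts. Trim30a overlapped, at 5.31 and 6.86 in Trex1 WT, STING -/- hearts, against 4.41 and 7.63 in Trex1 WT, STING +/+ hearts. Atrial markers differed between these groups, since both Trex1 WT, STING -/- arrays had them raised, and their part in the result was not tested.

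Genes that work with the Trim members were read beside them in Trex1 KO against Trex1 WT hearts on STING +/+. All 16 tested interferon-stimulated genes were higher, with a median difference of 3.04 on the log2 scale, against 0.0044 for the Trim probes and -0.075 for all probes. The background on STING +/+ was 10.3% of all tested probes higher and 9.65% lower. On STING +/- 12 of the 16 were higher (median 2.46), against 0.969% of all tested probes, and on STING -/- none was (median 0.068). Of 19 tested partners in nucleic acid sensing, 7 were higher and 2 lower on STING +/+, with a median of 0.41. The 2 lower are near the background share of 9.65%. The higher ones included Irf7 (6.03 ± 0.48), a transcription factor of the interferon response, and Dhx58 (4.17 ± 0.40), a relative of RIG-I. Cgas (2.22 ± 0.29) and Rnf135 (1.48 ± 0.24), a ligase related to Trim25, were among them too. Irf7 is also counted among the 16 interferon-stimulated genes. Mavs, the adaptor of the RNA sensors, fell by 1.12 ± 0.21 (adjusted p = 0.005 in limma).

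Of the tested genes, 4 encode tripartite-motif or related proteins under other symbols. Pml, which builds nuclear bodies, was higher by 2.17 ± 0.29 (adjusted p = 0.000724 in limma). Mefv, the pyrin gene, was not detected on either WT array and was at least 1.56-fold higher (adjusted p = 0.0018 in limma). Cmya5, which encodes myospryn of striated muscle, fell by 1.83 ± 0.29 (adjusted p = 0.00182 in limma), and Mid2 did not pass. Of 11 tested genes of atrophy and MuRF partners 3 were lower and none was higher, with a median of -0.60. The background was 9.65% of all tested probes lower and 10.3% higher. The 3 were Ttn (-1.46 ± 0.20), Tnni3 (-1.14 ± 0.22) and Map1lc3b (-0.85 ± 0.20). Tnni3 is counted again among the cardiomyocyte markers below. Fbxo32, the atrophy ligase usually read beside Trim63, had a difference of -0.92 ± 0.34 and did not pass (adjusted p = 0.0856 in limma). None of 5 tested partners of Trim28 and Trim24 passed.

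Markers of other cell types moved in the same comparison, where 10.3% of all tested probes were higher and 9.65% lower. Of 9 tested macrophage and monocyte markers 8 were higher, with array means of 10.87 and 10.89 in Trex1 KO, STING +/+ hearts, against 7.58 and 8.02 in Trex1 WT, STING +/+ hearts. All 4 tested T and NK cell markers were higher, with array means of 9.24 and 9.70 in Trex1 KO, STING +/+ hearts, against 4.67 and 4.70 in Trex1 WT, STING +/+ hearts, and Cd4, Cd8a and Gzmb were not detected. On STING +/- 2 of the 9 macrophage markers and 3 of the 4 T and NK cell markers were higher, against 0.969% of all tested probes. In Trex1 KO, STING +/- hearts the macrophage means were 9.07 and 9.67, against 7.66 and 7.94 in Trex1 WT, STING +/- hearts. The T and NK cell means were 6.10 and 7.18 in Trex1 KO, STING +/- hearts, against 4.53 and 4.65 in Trex1 WT, STING +/- hearts. On STING -/- none of these markers passed, with macrophage means of 7.50 and 8.14 in Trex1 KO hearts, against 7.22 and 8.11 in Trex1 WT hearts. The part of these markers in the Trim results was not tested. Cardiomyocyte markers had array means of 13.37 and 13.44 in Trex1 KO, STING +/+ hearts, against 14.25 and 14.26 in Trex1 WT, STING +/+ hearts, with 5 of 8 lower and none higher. Trim63, Cmya5 and Ttn fell beside them, and the part of the cardiomyocyte markers in that was not tested. Of the other marker lists on STING +/+, 3 of 5 fibroblast genes were lower and none higher (median -1.20), with Lum, Gsn and Pdgfra the lower ones. Both tested dendritic cell genes (Siglech and Itgax) and the 1 tested B cell gene (Cd79b) were higher. Of 4 skeletal muscle genes, Acta1 and Myl1 were higher and Ckm lower, of 5 endothelial genes Tek was lower, and of 7 atrial genes 1 was higher and 1 lower. Ckm is also counted among the cardiomyocyte markers. A single call in a list of 5 or 7 genes is not read as a change of that cell type. The part of these lists in the Trim results was not tested either. In RNA of heart tissue, fewer cells of a type and less RNA per cell cannot be told apart.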

How the data were processed

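Total RNA of mouse hearts was hybridised to 12 Illumina arrays, per the labels. The authors deposited non-normalized intensity values for 45281 probes with a detection score given as a fraction from 0 to 1, which was read as 1 minus a detection p since brighter probes score higher (rank correlations of 0.979 to 0.988). They also deposited processed log2 values, centred per probe and quantile-normalized as far as a comparison over 4871 bright probes shows (largest difference 0.00508, column medians -0.01 to 0.01). Neither scanner nor slide is given in the sources used here. The platform annotation names 1 gene symbol for 34885 probes, several for 18 and none for 10378, and the Entrez IDs of all 113 Trim probes are in the GRCm38.p6 gene table.

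With limma 3.58.1 in R 4.3.3, intensities were background-corrected and quantile-normalized (neqc, offset 16), and probes with a score over 0.95 on 2 or more of 12 arrays were kept (22810). Means of 6 groups were fitted with lmFit and eBayes over 12 arrays (6 residual degrees of freedom, 8 contrasts), with Benjamini-Hochberg adjustment over all kept probes. A gene was represented by its brightest kept probe where 1 value is given. Where no array of a group detected a probe, the fold is a bound, against the higher of the probe's own signal and the lowest detected signal of each array. The fit was tested on simulated data.

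Values per array are given for genes past the threshold in Trex1 KO against WT on STING +/+, up to 4 per other contrast, the brightest gene of each role and genes whose probes disagree. Members, roles, lists and contrasts were chosen with earlier results of these data known. Motifs were searched in RefSeq promoter windows.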

Additional observations from a re-analysis of the deposited data

Results flagged for a closer look

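For 6 Trim probes the Trex1 effect on STING +/+ differed from that on STING -/- by a test of the difference itself (limma, Benjamini-Hochberg over all tested probes). The differences of effects, on the log2 scale, were 3.42 for Trim30d, 2.56 for Trim21 (ILMN_3139158), 2.48 and 2.43 for Trim34a (ILMN_2504718 and ILMN_2504717), 2.10 for Trim47 and 1.28 for Trim59 (ILMN_2515081). All 6 had the larger effect on STING +/+. The Trim59 probe was not detected on any Trex1 WT, STING +/+, Trex1 KO, STING -/- or Trex1 WT, STING -/- array, and Trim30d on neither Trex1 KO, STING -/- array, so these 2 values are fitted differences and not measured sizes or bounds.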

How the results depend on the processing

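Counts of Trim probes past the threshold changed with the settings, and except where a setting leaves arrays or probes out the cause was not tested. On STING +/+, the 13 probes that differed between Trex1 KO and WT became 7 with array weights, 5 with only the groups compared, and 8 to 22 with 1 array left out. For STING -/- against +/+ in Trex1 KO the 16 became 10 with array weights, 6 without the arrays with raised atrial markers, 7 with only the groups compared, and 7 to 21 with 1 array left out. On STING +/-, the 3 that differed between Trex1 KO and WT became 1 with quantile normalization alone, 1 with the authors' processed values, 1 with only the groups compared, 0 with no filter, 0 without the 2 arrays of low Hnrnpa2b1, 0 without the atrial arrays, and 0 to 3 with 1 array left out. For STING +/- against +/+ in Trex1 KO the 3 became 1 with array weights, 1 with sex as a covariate, 1 without the low Hnrnpa2b1 arrays, 0 without the atrial arrays, 0 with only the groups compared, and 0 to 15 with 1 array left out. For STING -/- against +/- in Trex1 KO the 4 became 2 with quantile normalization alone, 2 with the authors' processed values, 2 with sex as a covariate, 1 with no filter, 1 with only the groups compared, 0 without the atrial arrays, and 0 to 3 with 1 array left out. The 6 differences of effects became 2 to 13 with 1 array left out. The 2 counts of 0 stayed at 0 in all 14 alternatives each.

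In Trex1 KO against WT on STING +/+, Trim21, Trim30d, Trim34a and Trim47 kept direction and call in all 15 alternatives, Trim63 in 14, Trim25 in 11, Trim30a and Trim26 in 10 and Trim33 in 6. Trim59 (ILMN_2993661) kept them in 10 of 14, with a difference of 0.64 with quantile normalization alone against 1.43. Trim28, not past the threshold, changed sign to -0.28 without the low Hnrnpa2b1 arrays, -0.28 without the array labelled Trex1 KO, STING +/+ replicate 2 and -0.12 without Trex1 WT, STING +/+ replicate 1, and Trim8, not past it either, changed sign to -0.058 without Trex1 KO, STING +/+ replicate 1. With 1 array left out Trim28 ran from -0.28 to 0.33 and Trim8 from -0.058 to 0.35. The number of Trim probes detected was 28 where all 12 arrays were required and 65 where 1 sufficed. No paired analysis was possible because the labels give each sample a number of its own. The slide as a block was not run, since no slide is given. Leaving out 1 array leaves a group with a single array, assumed to vary like the other groups.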
